A study of Mus musculus with 2 samples.

Results

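A set of 10 genes for early inflammatory signals was followed across 2 arrays: the cytokine genes Tnf, Lif, Csf1 and Il6, the chemokine genes Cxcl1, Cxcl2, Cxcl10 and Ccl2, the cyclooxygenase gene Ptgs2 and the stress cytokine gene Gdf15. They were chosen by gene name with the measured values of these arrays already known, so their differences are given as a description and were not tested. The genes (10 of 34797 distinct gene names on the array) had 14 probes of 60 bases and 51 spots, and all of them are accounted for here. RNA came from mouse cells labelled GT1-7, an immortalised hypothalamic neuron line, grown in DMEM with fetal calf serum and treated in DMEM. Control cells (vehicle, 1 array) had DMSO for 30 min. Treated cells (GnRH, 1 array) had 50 nM of gonadotropin-releasing hormone (GnRH), the peptide that drives gonadotropin release from the pituitary, for 30 min. A free-text description carried by both samples names bradykinin and the A549 line instead; every other label names GT1-7. Gnrh1, the hormone gene that defines the line, was near background on both arrays. Of 7 GnRH neuron markers, that gene included, 5 were well above background on both. The same held for 6 of 7 gonadotrope markers (Gnrhr had processed signals of 14861 in vehicle and 13656 in GnRH). Among these Lhb was dim, at 71.5 and 72.1, and Fshb was not above background on either array. The cells are therefore called by their label only.

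Cytokines and chemokines are secreted proteins that act on receptors of the same or nearby cells. Many of their genes respond within minutes to receptors that activate mitogen-activated kinases, AP-1 or NF-kB, without needing new protein synthesis. Their transcripts are often short-lived, because AU-rich elements in the 3′ untranslated region recruit decay factors such as the protein of Zfp36. Ptgs2 encodes the inducible cyclooxygenase that begins prostaglandin synthesis, and Gdf15 encodes a distant relative of the transforming growth factor beta family that is induced by many cell stresses.

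Immediate-early genes served as a check that the arrays differed in stimulation. They cannot tell which agent was given, so the description naming bradykinin stays unresolved. Egr1, a zinc-finger factor gene, had a signal of 73.5 with vehicle and 24361 with GnRH (log2 difference 8.47 ± 0.22), and Fos, a subunit of AP-1, had 114 and 6725 (5.98 ± 0.07). Differences are GnRH minus vehicle after each array was scaled to its 75th percentile. The ± after a difference combines the scanner software's spot errors of both arrays and is not a spread between cultures. Spots of a probe printed several times were taken as independent. The ± of such a probe is therefore narrower and cannot be compared with that of a single spot. The arrays had 55.2% and 56.9% of 59305 non-control spots well above background, and 0 saturated spots. Both arrays measured 21219 genes well above background, of which 66 were higher by 2-fold or more with GnRH and 28 lower by as much, and the median difference was -0.01. With 1 array per group there is no replicate check of any value, and in bulk RNA fewer cells of a type and less RNA per cell cannot be told apart.

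Of the 10 genes, 6 were well above background on both arrays (Gdf15, Cxcl10, Cxcl1, Lif, Csf1 and Ccl2), 2 on the GnRH array only (Tnf and Cxcl2) and 2 on neither (Il6 and Ptgs2). All 6 measured on both arrays were above 0, where 47.5% of all genes were. Gdf15 and Cxcl10 were at least 2-fold higher, where 0.311% of all genes were, and Cxcl1 made 3 at 1.5-fold, where 1.19% were. None of the 6 was lower. Their median log2 difference was 0.51. Since the genes were picked with these values known, nothing about them as a set is read from those shares.

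**Figure D1:**
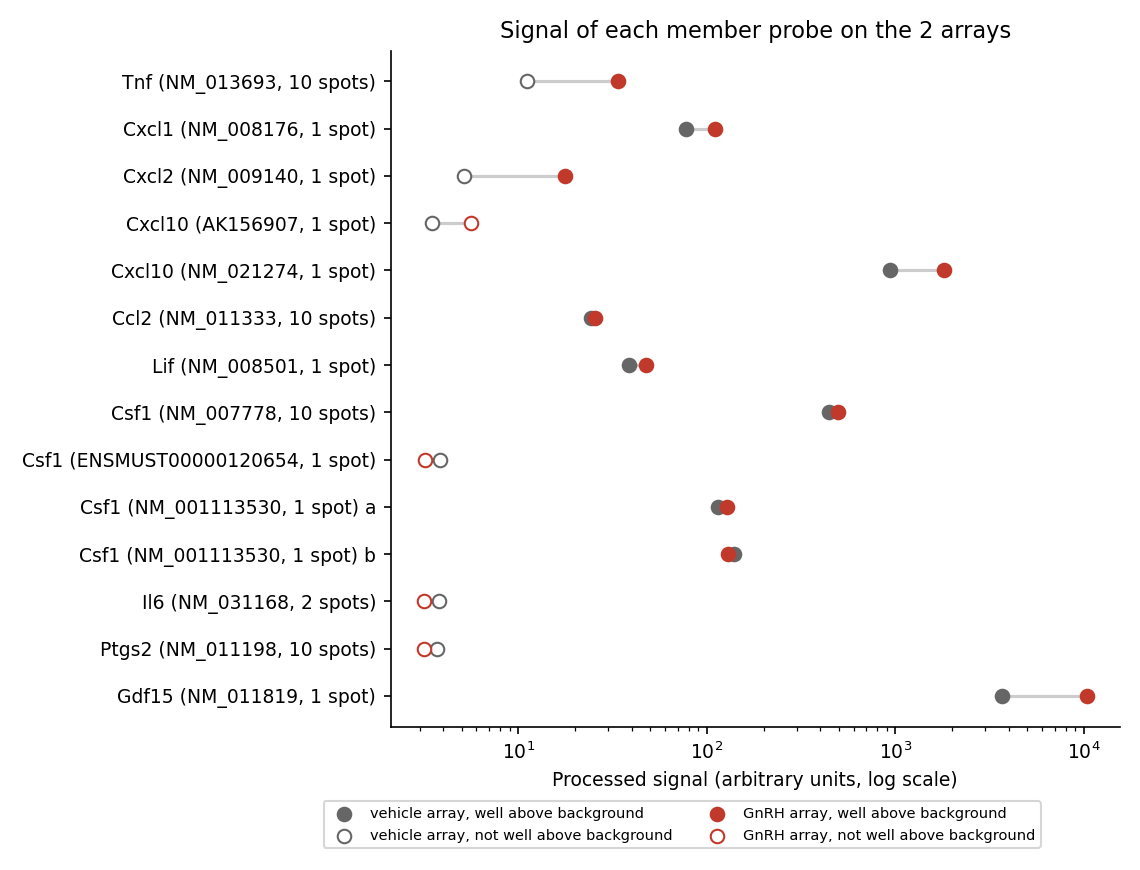
Processed signal (arbitrary units, log scale, mean over the kept spots of a probe on the log scale) of each of the 14 probes on the vehicle array (grey) and the GnRH array (red); a and b mark the overlapping Csf1 probes, filled points were well above background and open points were not. Gdf15 and Cxcl10 sit far above background and apart on the 2 arrays, Tnf and Cxcl2 cross from open to filled, and Il6 and Ptgs2 are unfilled on both, near the negative controls.

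Some of the probes carry the pentamer ATTTA, the core of AU-rich elements as it is written in DNA. It was searched on the probe strand only, and was chosen after the probe sequences had been seen. Of the 14 probes 4 held it (28.6%), against 7.71% of all 55681 probes, and those for Gdf15 and Lif held 2 copies each, which 0.488% of all probes do. The stretches of 30 bases around the copies are shown because they belong to the probes of the member with the largest difference measured on both arrays, a gene seen on the GnRH array only, a dim gene and an undetected gene; capitals mark the pentamers.
Gdf15: atggattgtgtATTTATTTAaaactctgct
Lif: ggggcctttATTTAttATTTAaaacttcaa
Cxcl2: catttttaaacctATTTAttcattagtttc
Ptgs2: ttaggctgttggaATTTAcgcataaagcag
In the mm9 coordinates of the file headers these stretches lie at chr8:73153315-73153344 (minus strand), chr11:4172045-4172074 (plus), chr5:91334551-91334580 (plus) and chr1:151954769-151954798 (plus). No mm9 annotation was used, so exons and untranslated regions were not assigned. The 4 genes with the pentamer had different outcomes on the arrays, from 2.99-fold higher for Gdf15 to no signal above background for Ptgs2.

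RefSeq promoter sequences (GRCm38.p6; 250 bases before to 50 after a gene's start) were found for 9 of the 10 genes, in 10 windows. The bases before the start are shown for the genes whose signals differed most between the arrays or that neighbour each other in one chemokine cluster; capitals mark motif matches.
Gdf15: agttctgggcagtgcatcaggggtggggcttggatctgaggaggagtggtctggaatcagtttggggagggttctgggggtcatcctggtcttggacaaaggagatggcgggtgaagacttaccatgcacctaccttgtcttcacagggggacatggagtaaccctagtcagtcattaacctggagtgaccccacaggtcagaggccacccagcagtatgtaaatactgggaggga
Cxcl10: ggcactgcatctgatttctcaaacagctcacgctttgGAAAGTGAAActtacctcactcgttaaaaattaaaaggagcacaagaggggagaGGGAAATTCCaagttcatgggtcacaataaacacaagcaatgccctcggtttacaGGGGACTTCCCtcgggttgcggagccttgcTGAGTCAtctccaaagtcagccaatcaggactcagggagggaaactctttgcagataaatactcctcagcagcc
Cxcl1: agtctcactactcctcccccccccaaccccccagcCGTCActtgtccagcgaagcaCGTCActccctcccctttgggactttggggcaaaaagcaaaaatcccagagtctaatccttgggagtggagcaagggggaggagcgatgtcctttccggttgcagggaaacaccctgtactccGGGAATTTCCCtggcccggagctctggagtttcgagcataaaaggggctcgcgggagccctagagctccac
Cxcl2: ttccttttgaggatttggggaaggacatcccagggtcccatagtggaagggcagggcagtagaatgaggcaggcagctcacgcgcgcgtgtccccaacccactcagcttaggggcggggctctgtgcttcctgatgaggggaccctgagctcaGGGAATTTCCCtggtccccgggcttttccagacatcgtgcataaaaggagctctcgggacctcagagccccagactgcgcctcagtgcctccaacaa
Tnf: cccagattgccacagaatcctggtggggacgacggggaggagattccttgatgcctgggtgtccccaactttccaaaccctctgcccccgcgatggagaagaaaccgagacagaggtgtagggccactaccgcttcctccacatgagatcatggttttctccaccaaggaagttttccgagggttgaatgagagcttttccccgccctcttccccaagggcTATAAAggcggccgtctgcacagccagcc
In GRCm38.p6 these lie at chr8:70632471-70632706 (minus strand), chr5:92348890-92349139 (minus), chr5:90890995-90891244 (plus), chr5:90903649-90903898 (plus) and chr17:35202008-35202257 (minus). The Gdf15 stretch is 236 bases long because only the part outside the annotated gene is printed.

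Motifs were searched on both strands of the whole window. The NF-kB motif, by name, was in the windows of 6 of the 9 genes (Cxcl1, Cxcl2, Cxcl10, Lif, Csf1 and Il6), against 8.46% of all 32851 windows. Cxcl1 and Cxcl2 hold the same match, which begins at -71 and -97 from the start, and Cxcl10 holds 2 separate matches, beginning at -159 and -104. The AP-1 motif (TGACTCA or TGAGTCA) was in 3 genes' windows, at -74 in Cxcl10, -228 in Lif and -249 in Il6, against 5.2% of all windows. Cxcl10 alone among the genes held the interferon-response motif, by name, at -213 (3.44% of all windows), and Tnf alone held TATAAA, at -29 (13.6%). The cAMP-response motif TGACGTCA and the EGR motif (GCGGGGGCG or GCGTGGGCG) were in no window of the 9 genes, against 1.79% and 3.47% of all windows; the serum-response motif, by name, was likewise in none, against 1.63%. The shorter TGACG, which also lies within TGACGTCA, was in 3 (Cxcl1, Il6 and Ptgs2; 20.8% of all windows). Neither of the Gdf15 windows held any of these motifs. A match is a description of the letters and not a site, and a window without one says nothing of the factor.

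Gdf15 had the largest difference among the members well above background on both arrays. Its probe (NM_011819, mm9 chr8:73153293-73153352, the one with the paired ATTTA copies) read 3680 with vehicle and 10317 with GnRH. The log2 difference was 1.58 ± 0.20, or 2.99-fold, which placed it at rank 41 of the 21219 genes, above 99.8% of them. The difference is several times the scanner error, but it rests on 1 spot per array. Its neighbouring spots on the slide had a median difference of 0.05. The 3 genes nearest to Gdf15 in the plane of the normalised log2 signals of both arrays (distance in log2 units) were Jun, an AP-1 subunit gene, at 0.25, Zfp36l2, an mRNA decay factor gene, at 0.74, and Chac1, a glutathione-degrading enzyme gene of the stress response, at 0.75. Jun read 3311 and 11853 (log2 difference 1.93), a larger difference than that of Gdf15, whereas Zfp36l2 and Chac1 had smaller ones of 0.57 and 0.67.

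The receptor of Gdf15, encoded by Gfral with its co-receptor Ret, was not above background on these arrays. Among 17 other growth and differentiation factor genes, 11 were measured on both arrays with a median of -0.02, and 0 were past 2-fold in either direction. The largest differences in that list were Inhba, an activin subunit gene (102.6 and 130.0; log2 difference 0.44 ± 0.21), Gdf5 (58.7 and 67.5; 0.30 ± 0.23) and Inha, the inhibin alpha subunit gene (404 and 310; -0.29 ± 0.20). Gdf7 was above background on the GnRH array only, with a bound of 1.44-fold.

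Cxcl10, an interferon-responsive chemokine that attracts lymphocytes through the receptor Cxcr3, was the other gene past 2-fold. Its RefSeq probe (NM_021274, mm9 chr5:92775781-92775840) read 932 with vehicle and 1812 with GnRH, a log2 difference of 1.05 ± 0.20 or 2.08-fold (rank 59). The value lies just past the 2-fold line, by less than the scanner error. A further Cxcl10 probe, designed to a cDNA clone (AK156907, mm9 chr5:92776616-92776675), read 3.50 and 5.62 and missed the background mark on both arrays, so Cxcl10 rests on 1 spot per array. Among the genes nearest to it in the signal plane were Malat1 (distance 0.37) and Gzf1 (0.40). A probe of Gzf1 had a spot inside an area of the slide where neighbouring spots differed together, and the Cxcl10 spots did not (median of the surrounding spots -0.07). Its receptor gene Cxcr3 was above background on the GnRH array only, at 4.10 and 24.0, with a lower bound of 1.57-fold.

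Cxcl1 and Cxcl2, chemokines that attract neutrophils through Cxcr2, are neighbouring genes with the same NF-kB match. Cxcl1 (NM_008176, mm9 chr5:91321845-91321904) read 77.3 with vehicle and 110.7 with GnRH, a log2 difference of 0.61 ± 0.22 or 1.53-fold (rank 228). Of 4211 genes with a vehicle signal from 25 to 100, where Cxcl1 and Lif lie, 2.56% were at least 1.5-fold higher. With normexp or no background correction the Cxcl1 difference was 0.39, which is under 1.5-fold.

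Cxcl2 (NM_009140, mm9 chr5:91334534-91334593) read 5.14 on the vehicle array, where its spot was not well above background, and 17.6 on the GnRH array, where it was. The highest of the negative control spots was 4.61 for vehicle and 4.03 for GnRH, so Cxcl2 was above all of them on both. A lower bound takes the GnRH signal over the lowest vehicle signal called well above background (16.3), or over the probe's own if that is higher, after scaling; for Cxcl2 it was 1.15-fold. Taken at face value the log2 difference was 1.87 ± 1.18, an error too wide to separate it from a difference under 2-fold. Their receptor gene Cxcr2 was not above background, and Cxcr1 was above it on the GnRH array only (bound 1.15-fold).

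Tnf, the founding member of the tumour necrosis factor family, was printed 10 times on each array (NM_013693, mm9 chr17:35336795-35336854). On the vehicle array its spots ran from 6.13 to 18.6 with a median of 11.3, and on the GnRH array from 28.3 to 40.3 with a median of 33.8. The spots of the 2 arrays did not overlap, and each of the 10 GnRH spots was above its partner at the same position, by 1.02 to 2.32 on the log2 scale (SD 0.39 over spots of one hybridisation, which are not replicates of a culture). Only 1 of 10 vehicle spots was well above background, against 10 of 10 GnRH spots. The gene was therefore given a lower bound, 2.21-fold. A bound of at least 2-fold was reached by 67 of the 938 genes seen on the GnRH array only (7.14%). In the other direction it was reached by 69 of the 324 genes seen on the vehicle array only. The Tnf bound fell to 0.39 on the log2 scale with normexp and 0.36 with no background correction, below 2-fold. The normexp offset of 50 is larger than every Tnf signal, and uncorrected signals keep their background. Both settings therefore shrink the differences of dim spots whatever the data.

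All 10 vehicle spots of Tnf were nevertheless positive and significant by the scanner's looser call, and the measured log2 difference was 1.70 ± 0.21, or 3.26-fold. Of 303 probes printed 10 times that passed the looser call on both arrays, Fos and Tnf were at least 2-fold higher (0.66%). In 36 of those probes with a dim vehicle signal from 5 to 25, a window chosen after the data were seen, differences ran from -0.55 to 1.70 with a median of 0.10, and Tnf was the highest. The receptor gene Tnfrsf1a was well above background on both arrays at 962 and 985 (log2 difference 0.13 ± 0.20), and Tnfrsf1b on neither. Adam17, which encodes the protease that sheds the Tnf protein, read 205 and 185 (-0.06 ± 0.21).

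**Figure D2:**
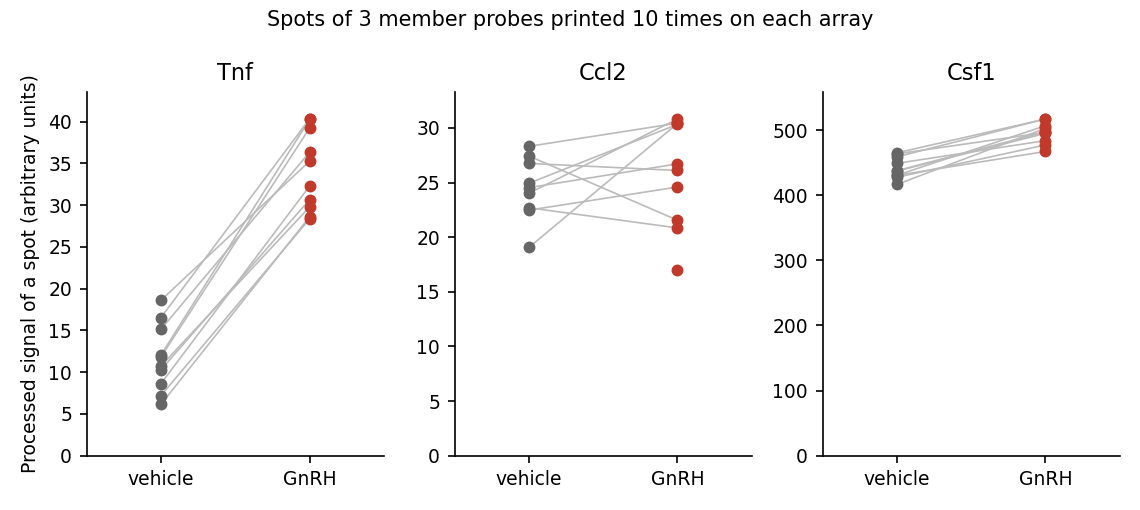
Processed signal (arbitrary units) of each kept spot of the probes for Tnf, Ccl2 and Csf1 that were printed 10 times, on the vehicle array (grey) and the GnRH array (red); lines join spots at the same position. Tnf spots at 6.13 to 18.6 moved to 28.3 to 40.3 with no overlap, Ccl2 spots overlapped, and Csf1 spots separated by a small step.

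Ccl2, a monocyte-attracting chemokine that acts through Ccr2, had overlapping spots on the arrays. Its 10-spot probe (NM_011333, mm9 chr11:81850650-81850709) ran from 19.1 to 28.3 with a median of 24.5 over the 9 kept vehicle spots, and from 17.0 to 30.8 with a median of 26.4 on the GnRH array. The ranges overlapped, and 7 of 9 paired spots were higher on the GnRH array, with differences from -0.25 to 0.77. The log2 difference was 0.16 ± 0.12 (rank 2501), and single spot pairs had an SD of 0.29. Ccr2 was not above background on these arrays.

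Csf1, the growth factor of macrophages, had a slightly higher signal with GnRH on its 10-spot probe. The 10-spot probe (NM_007778, mm9 chr3:107544333-107544392) ran from 417 to 465 with a median of 438 on the vehicle array and from 467 to 517 with a median of 497 on the GnRH array. The spots did not overlap and all 10 paired differences were above 0, from 0.19 to 0.37, but they repeat one probe on one hybridisation each and are no replicates of a culture. The log2 difference was 0.26 ± 0.06 with the 10 spots taken as independent, or 1.20-fold (rank 1319). The other Csf1 probes gave a mixed picture. Those for NM_001113530, which overlap each other by 31 bases (mm9 chr3:107548550-107548580), read 115 and 128 (0.25 ± 0.21) and 139 and 129 (-0.01 ± 0.21). The fourth, for an Ensembl transcript (mm9 chr3:107553659-107553718), missed the background mark on both arrays. Averaged over the 3 probes above background, the Csf1 difference was 0.17. Its receptor gene Csf1r read 1547 and 1481 (0.03 ± 0.20).

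Lif and Il6 encode cytokines that share the signalling receptor subunit gp130, the product of Il6st. Lif (NM_008501, mm9 chr11:4172032-4172091) read 38.7 with vehicle and 47.7 with GnRH, a log2 difference of 0.40 ± 0.28 or 1.32-fold (rank 643). It rests on 1 dim spot per array, and its lowest value under another background correction was 0.18. Il6 (NM_031168, mm9 chr5:30346367-30346426) was not detected: its 2 spots read 3.77 and 3.78 on the vehicle array and 3.12 and 3.19 on the GnRH array. These lie among the negative control spots, which had medians of 3.79 and 3.20. Il6 therefore has no difference that can be read, and its transcript may be present below the detection limit. The receptor genes were measured on both arrays, Lifr at 746 and 725 (0.05 ± 0.20), Il6st at 2813 and 2562 (-0.04 ± 0.20) and Il6ra at 378 and 320 (-0.15 ± 0.20).

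Ptgs2 (NM_011198, mm9 chr1:151954744-151954803) was not detected either. Its 6 kept vehicle spots ran from 3.41 to 3.96 and its 10 GnRH spots from 2.88 to 3.43, and none was positive and significant by the looser call. A further 4 vehicle spots were marked as outliers and left out. The brightest of them read 419 on the vehicle array and 3.43 at the same position on the GnRH array, and it lay inside one of the slide areas where neighbouring spots differed together (median of its neighbours -3.26). It is the only 1 of the 51 member spots inside the 3 areas, which held 611 non-control spots. Of 21 other prostaglandin genes, 11 were measured on both arrays, with a median of -0.03 and 0 past 2-fold. The largest differences were in Hpgd, which encodes the enzyme that inactivates prostaglandins (28.5 and 16.9; log2 difference -0.66 ± 0.37), and the receptor genes Ptger1 (34.9 and 24.5; -0.42 ± 0.31) and Ptger4 (834 and 923; 0.24 ± 0.20). Ptgs1, the constitutive cyclooxygenase gene, was not above background, and the prostaglandin E synthase gene Ptges read 22774 and 20658 (-0.05 ± 0.20).

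**Figure D3:**
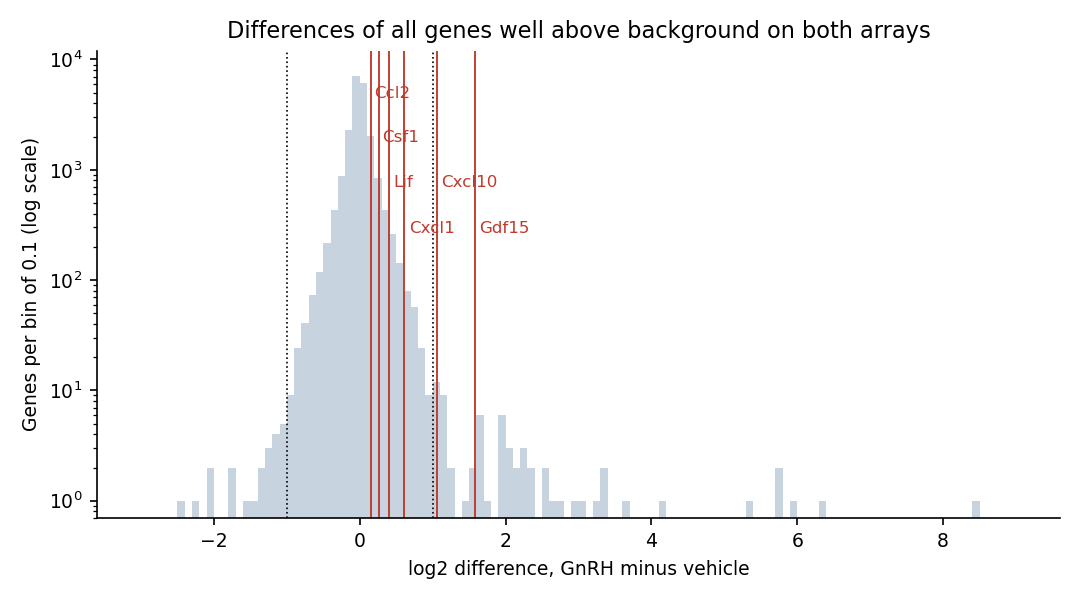
Number of genes (log scale) by log2 difference, GnRH minus vehicle, in bins of 0.1 for the 21219 genes well above background on both arrays; dotted lines mark 2-fold and red lines the 6 members. Gdf15 and Cxcl10 lie past the 2-fold line and the other 4 lie between 0.16 and 0.61, on the right flank of the main body of genes.

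Other cytokine and chemokine genes had medians near 0. Of 32 other chemokine genes, 11 were measured on both arrays with a median of 0.02 and 0 past 2-fold; the largest were Ccl1 (27.0 and 19.6; -0.37 ± 0.35), Ccl17 (31.9 and 35.8; 0.26 ± 0.30) and Ccl19 (111.5 and 89.2; -0.23 ± 0.22). Of 42 other cytokine genes, 17 were measured on both with a median of 0.03 and 0 past 2-fold. The ends of that range were genes of the tumour necrosis factor family, Tnfsf13b (48.8 and 31.9; -0.52 ± 0.26) and Tnfsf10 (27.7 and 37.0; 0.51 ± 0.31), followed by Il16 (21.5 and 28.3; 0.49 ± 0.39). Ccl8 and Ifnb1 were seen on the GnRH array only, with bounds of 2.54-fold and 3.43-fold, but their spots lay inside the slide areas. Of 15 receptor genes for the members, 6 were measured on both, with a median of 0.04 and a highest value of 0.52 ± 0.34 for Ackr2, a scavenger receptor for chemokines.

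Lists of the signalling pathways also had medians near 0. In a list of 21 genes of the Tnf and NF-kB response, 18 were measured on both with a median of 0.06, and 0 were past 2-fold. The 3 largest were those of Nfkbiz, Nfkbia and Tnfaip3. Nfkbiz, an atypical gene of the IkB family, read 106.97 and 190 (0.93 ± 0.21). Nfkbia, which encodes the classical IkB inhibitor of NF-kB, read 46055 and 59015 (0.45 ± 0.20). Tnfaip3, which encodes a ubiquitin-editing enzyme that restrains NF-kB, read 216 and 268 (0.41 ± 0.21). Other inhibitor genes of that list differed by less than the scanner error, Nfkbie at -0.10 ± 0.20, Tnip1 at -0.05 ± 0.20 and Nfkbib at 0.05 ± 0.20. Of 23 genes of JAK-STAT signalling, the route used by Lif and Il6, 22 were measured with a median of 0.02, and 0 were past 2-fold. Its largest differences were those of the inhibitor genes Cish (282 and 390; 0.56 ± 0.21) and Socs3 (3447 and 4430; 0.46 ± 0.20), and of Stat2 (2400 and 1811; -0.31 ± 0.20). The other Socs genes, 6 in number, ran from -0.12 ± 0.20 for Socs1 to 0.18 ± 0.20 for Socs7.

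Among 10 genes that control the decay or processing of cytokine transcripts and proteins, all on the array, 8 were measured on both, with a median of 0.01. Zfp36, which encodes a decay factor, was seen on the GnRH array only, at 8.03 and 103, with a bound of 6.77-fold. The endonuclease gene Zc3h12a read 75 and 114 (0.70 ± 0.22), Zfp36l2 read 5707 and 7945 (0.57 ± 0.20), and Rc3h1, which encodes an RNA-binding repressor of cytokine messages, read 1796 and 2087 (0.31 ± 0.20). All 3 were higher by less than 2-fold.

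**Figure D4:**
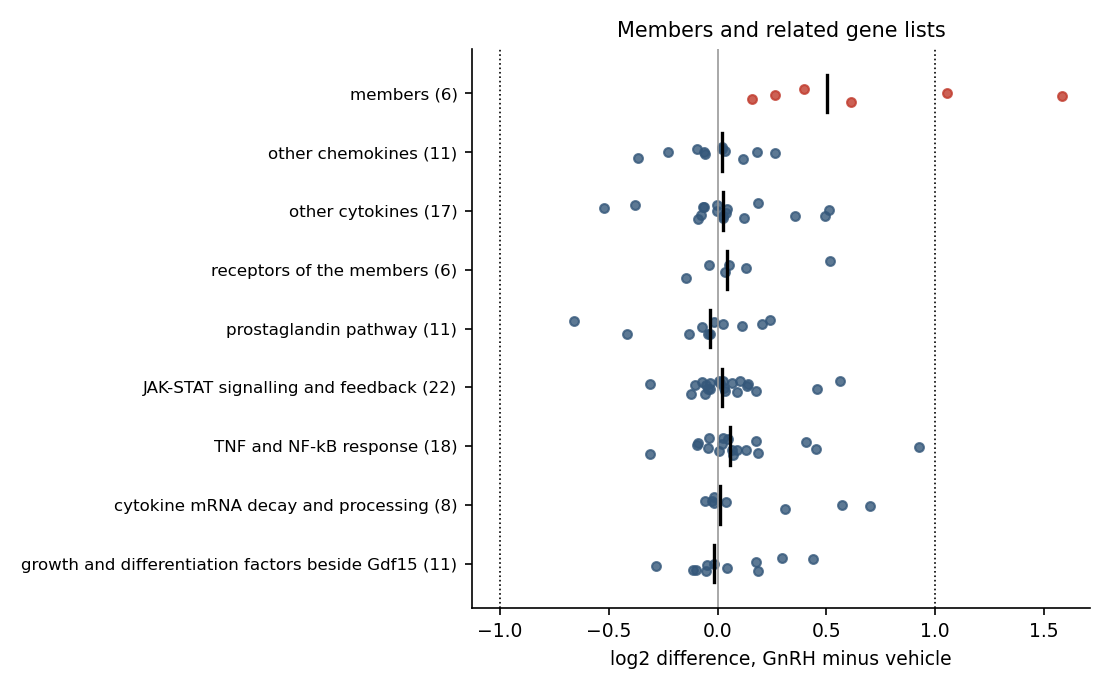
log2 difference, GnRH minus vehicle, of each gene well above background on both arrays (points), for the 6 members (red) and 8 lists of related genes (blue), with the number measured in brackets, the median of each list as a black bar and 2-fold as dotted lines; the vertical jitter has no meaning. List medians lie between -0.03 and 0.06, and Nfkbiz, at 0.93, is the highest point outside the members.

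Markers of other cell types were measured in part. Of 10 macrophage and microglia markers, 5 were well above background on both arrays, with a median of -0.04 and a range from -0.26 to 0.67; the highest was Cd14 (22.2 and 33.1). Others were bright, Itgam at 5000 and 4561, Csf1r at 1547 and 1481 and Cd68 at 361 and 323. The pan-leukocyte marker Ptprc and the myeloid genes Cx3cr1 and Lyz2 were not above background on either array. Of 6 lymphocyte markers 3 were measured, all slightly lower, from -0.14 to -0.08 (Cd4 at 3381 and 2986, Cd3e at 1385 and 1225); 2 of 4 endothelial, 2 of 6 fibroblast and 2 of 4 astrocyte markers were measured, and none of these was past 2-fold. The endothelial gene Kdr read 6742 and 6310. Among 7 GnRH neuron markers 5 were measured, from -0.59 for Otx2 to 0.62 for Dlx5, and the 6 gonadotrope markers had a median of -0.03. The part of other cells in the members' differences was not tested.

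The differences of the 6 members measured on both arrays kept their direction under every alternative that gave them a value. Gdf15 ran from 1.56 to 1.59 and Cxcl10 from 1.02 to 1.06 over 12 alternatives each, both past 2-fold in all of them. Each rests on 1 spot of 1 usable probe. Changes of dim-probe filter, probe rule, outliers, background call or areas therefore left both at the main value and check nothing. The authors' value table only repeated quantile normalization for both genes (1.583 and 1.053). Cxcl1 ran from 0.39 to 0.62, Lif from 0.18 to 0.40 and Ccl2 from 0.09 to 0.21 over 11 each, and Csf1 from 0.17 to 0.27 over 12.

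**Figure D5:**
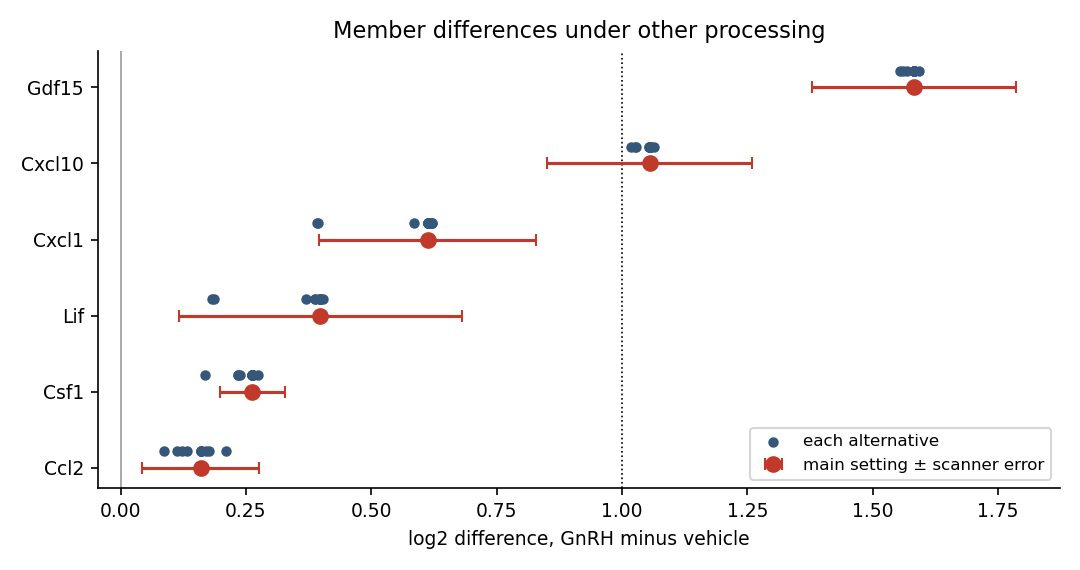
log2 difference, GnRH minus vehicle, of each member well above background on both arrays: the red point is the main value with the scanner error as its bar, the blue points above it are the same gene under each alternative processing, and the dotted line is 2-fold. Gdf15 stays between 1.56 and 1.59, Cxcl10 stays just past the line, and Cxcl1 and Lif have separate lower values with normexp or no background correction.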

How the data were processed

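Cy3-labelled cRNA from each sample was put on an Agilent mouse array of the 1-colour kind, per the labels' protocols. The deposited scanner output holds linear intensity values per spot. Background subtraction and spatial detrending were done in Feature Extraction. The file headers give version 10.7.1.1 for the grid-placement step, while version 9.5.1.1 is named in the submitters' processing notes. The authors' deposited value table holds intensity values too and served as an alternative. A p-value that a spot equals its background is deposited for each spot and was not used directly. The scanner software's own background marks were used as given, however it derived them.

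Control and outlier spots (121 and 94) were left out, log2 signals of a probe's spots were averaged, and each array's 75th percentile (578 on the vehicle array, 541 on the GnRH array) was subtracted. Probes counted as well above background with the mark on 50% or more of the kept spots; a gene was its brightest such probe. Scanner errors were combined over both arrays, with spots taken as independent; for bright spots they are mostly 0.1 of the signal, and the typical error of a log2 difference was 0.204. Symbols of 27235 of 55681 probes came from RefSeq by accession (2838 differed from the file's; no member's did). No test could be made on single arrays, and a call means past 2-fold.

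Members and lists were chosen with earlier results of these data known. Named genes were all members with every probe, list genes past 2-fold or with the 3 largest differences, receptors and enzymes of members, Egr1, Fos and the nearest genes; some that the rule takes are left out of the text. Areas were connected spots whose neighbours within 2 spots had a median difference of 0.3 or more in size, at least 4 spots, widened by 2. Alternatives changed scaling (median, quantile, lowess), background correction (none, or normexp with offset 50 in limma 3.58.1), source, dim-probe filter, probe rule, outliers, background call, areas and threshold. Scripts ran in Python 3.11.15 with numpy 2.4.6, pandas 2.3.3 and R 4.3.3, and were tested on simulated data. The number of arrays limits the precision.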

Additional observations from a re-analysis of the deposited data

How the results depend on the processing

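Of 87 member differences under 12 value alternatives, 3 moved by more than the scanner error. These were Cxcl1 to 0.39 with normexp and 0.39 with no background correction, and Csf1 to 0.17 as a mean over probes. A reversal was counted only for values past 2-fold, those of Gdf15 and Cxcl10, and neither reversed. For members with 1 usable probe and 1 spot, several alternatives could not change the value, so the 87 overstate the check. The Csf1 probe at -0.01 ran from -0.04 to 0.01 and so changed sign. The Tnf bound (1.15) came to 0.39 and 0.36 with normexp and with no background correction, which shrink the differences of dim spots. Member genes at least 2-fold higher numbered 2, with 0 at 3-fold, 4 with no filter on dim probes and 4 with the positive and significant call, under which 0 member genes were seen on the GnRH array only. Of all genes, 66 were higher and 28 lower at 2-fold; 253 and 187 were at 1.5-fold, 40 and 13 at 3-fold, 1259 and 760 with no filter, and 552 and 311 with the looser call. Higher genes numbered 46 with normexp, 47 with no background correction, 45 without the areas and 45 with the stricter filter. Lower genes numbered 12 with normexp, 12 with no background correction, 14 without the areas and 9 with the stricter filter. Of 130 list medians, 1 moved, that of other chemokines, to -0.14 with no filter. The stricter filter leaves no value for Cxcl1, Lif and Ccl2. No paired analysis was possible because each group has 1 array, and for the same reason no array could be left out. Signals near background limit Tnf, Cxcl2, Il6 and Ptgs2, dim signals limit Ccl2 and Lif, and single spots limit Gdf15, Cxcl10, Cxcl1, Cxcl2 and Lif.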
